A study of Danio rerio with 30 samples.

Results

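The solute carriers (symbols beginning with slc and a family number) are the largest superfamily of membrane transporters and were measured here in olfactory tissue of zebrafish exposed to copper, to an insecticide or to both. Members were taken by name and by no measured value: every probe set, other than the array's own controls, whose single gene symbol begins with slc and a number, with the probe set of highest mean signal standing for a gene that has several. This gave 158 of 15502 probe sets and 137 genes in 39 families. Of these genes, 12 belong to the zinc and copper families slc30, slc31 and slc39. 2 matches are named after a carrier and are not carriers by name, the adaptor slc4a1ap and slc7a6os.

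Solute carriers move ions, metals, sugars, amino acids and other small molecules across membranes, either down a gradient or coupled to gradients that the sodium and proton pumps set. The slc30 proteins carry zinc out of the cytosol, to the outside or into organelles, whereas the slc39 proteins carry zinc into the cytosol and slc31a1 takes up copper. In olfactory tissue, carriers of the slc17, slc18 and slc32 families load transmitters into vesicles and those of the slc1 and slc6 families clear them. The roles given below are those of the mammalian counterparts.

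Total RNA from adult AB strain zebrafish, aged 1 year, was hybridised to Affymetrix zebrafish arrays, 1 array per sample and 3 arrays in each of 10 groups. The groups were a control without either agent, chlorpyrifos (CPF, an organophosphate insecticide) at 0.1, 0.25 or 0.6, copper (Cu) at 0.1, 0.25 or 0.6, and Cu 0.25 together with CPF 0.1, 0.25 or 0.6. The unit of the concentrations and the length of exposure are not given in the sources used here. One label field gives the tissue as olfactory rosettes and another adds the olfactory bulbs and telencephalons, so each array may hold RNA of several cell types, in which fewer cells of a type and less RNA per cell cannot be told apart. The design describes 30 fish exposed in groups of 3, but no label ties an array to a fish, so each p-value reflects only how much these arrays vary, which may be technical.

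All values are log2 expression values. The arrays had medians between 5.53 and 5.63, and correlations between pairs of arrays were 0.962 to 0.993. The titles of the arrays carry 3 dates, whose meaning is not stated, and the arrays were treated as 3 title batches of 12, 13 and 5 arrays. All fits hold this batch as a term, so a fitted difference can depart slightly from the difference of the array values printed beside it. Of 8 listed markers of olfactory sensory neurons, 3 were measured (ompb, gng13b and s100z), and all 3 fell with copper, by a median of 1.26 in the average over CPF levels and of 2.48 at Cu 0.6. The mean level of these 3 markers was 9.27 to 9.91 in the control arrays and 7.22 to 7.36 in the Cu 0.6 arrays. 4 arrays had the highest pancreas marker means (5.40 to 7.02, with 4.31 or less in all others) and had been noted in an earlier look at these data: the first and the third of CPF 0.25, the second of CPF 0.6 and the third of Cu 0.25. The liver marker mean was highest in the second CPF 0.6 array (7.62), control replicate 1 (7.47) and the first CPF 0.25 array (7.47), none of which had copper. In the average over CPF levels, copper gave a median of -0.99 over 4 measured liver markers, 1 of them positive. Of these, fabp10a and apoa2 fell at an adjusted p under 0.05 in limma. The 4 measured pancreas markers were all negative there (median -0.57) and none passed. The part of these tissues in the carrier values was not tested. Control replicate 1 was also the array farthest out on the first principal component, and every comparison with control uses it. Calls are therefore given without the 4 arrays and without those 4 and control replicate 1.

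Of the 137 genes, 87 in 32 families exceeded a log2 value of 4 in at least 3 arrays and were tested, among 10531 probe sets in all. 73 of the 87 were above 4 in all 30 arrays. The other 50 genes were at a mean of 1.79 to 3.77, and 40 of them had no array above 4. The amino acid carriers (12 of 15 genes), the mitochondrial carriers (20 of 25), and the zinc exporters (5 of 5) and importers (5 of 6) were mostly detected. Role groups follow family numbers, so a group can hold members whose mammalian counterparts carry other substrates, such as slc5a6b among the sugar carriers. Of the slc6 family 1 of 5 members passed the filter, and of the sugar group (slc2, slc5 and slc37) 5 of 14. The tested carriers varied about as much between arrays of a group as other genes did, with a median residual SD of 0.21 for the 87 carriers and 0.20 for all probe sets tested.

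Few solute carriers passed the test in any comparison. Over 18 comparisons, 4 of the 87 genes were called at a Benjamini-Hochberg adjusted p under 0.05, each of them higher with copper: the zinc exporter slc30a7, the zinc importer slc39a3, the amino acid transport heavy chain slc3a2a and the cationic amino acid exchanger slc7a7. Only arrays with copper carried slc7a7 past the filter on low values, so its call is no independent support. In the average effect of Cu 0.25 over the 4 CPF levels, which sets 12 arrays with copper against 12 without, 1 carrier was called where 4.35% of all probe sets were. At Cu 0.6 against control the count was 1 carrier, with 1.62% of all probe sets called. In the trend over the ranks of the 4 copper concentrations it was 2, slc7a7 among them, with 2.23% called. The comparison of CPF 0.25 + Cu 0.25 with CPF 0.25 called 1 carrier and 0.399% of all probe sets. At an unadjusted p under 0.05, 22 of the 87 carriers passed in the averaged copper comparison, which is 25.3% beside 19.3% of all probe sets, and 14 passed at Cu 0.6, which is 16.1% beside 15%. None of the 4 genes was called once the 4 arrays with high pancreas signal and control replicate 1 were all left out.

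The remaining comparisons called no solute carrier in limma. For each, the number of the 87 carriers at an unadjusted p under 0.05 is given beside the share of all probe sets at that p and, last, the share called after adjustment. Cu 0.1 against control had 13 carriers (10.8% of all at that p, 0% called) and Cu 0.25 against control had 11 (11% and 0.351%). CPF 0.1, 0.25 and 0.6 against control had 9, 5 and 12 (6.87%, 5.78% and 8.48% at that p, with 0%, 0% and 0.0095% called). The mixtures with CPF 0.1, 0.25 and 0.6 against control had 15, 16 and 11 (15.5%, 15.9% and 8.96%, with 0.171%, 0.18% and 0.095% called). The mixtures with CPF 0.1 and 0.6 against the same CPF alone had 6 and 7 (6.79% and 6.21%, with 0% called in each), and the mixture with CPF 0.25, in which slc39a3 was called, had 10 (9.85%). The average effect of CPF had 9 (4.91% and 0.0285%), the interaction of CPF and copper had 3 (3.67% and 0%), the test of any difference among the 10 groups had 18 (12.6% and 1.32%), and the CPF rank trend had 9 (7.52% and 0%). In the copper rank trend 10 carriers were at that p, beside 15.1% of all. As shares of the 87, the carriers were above the background in most comparisons. In percentage points the excess was largest in any difference among groups (20.7% beside 12.6%) and averaged copper (25.3% beside 19.3%). Next came the averaged CPF effect (10.3% beside 4.91%) and CPF 0.6 (13.8% beside 8.48%). They were below it in the copper rank trend (11.5% beside 15.1%), the interaction (3.45% beside 3.67%) and CPF 0.25 (5.75% beside 5.78%), and these differences in share were not tested.

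Groups of 3 arrays that do not overlap were common among carriers and among all probe sets. At Cu 0.1, 0.25 and 0.6, 11, 6 and 9 of the 87 carriers lay wholly above control, beside 9.44%, 6.98% and 11.4% of all probe sets, and 7, 1 and 5 lay wholly below, beside 7.92%, 4.96% and 6.44%. At CPF 0.1, 0.25 and 0.6, 11, 6 and 11 lay above, beside 8%, 6.81% and 7.84%, and 3, 3 and 3 lay below, beside 4.43%, 4.07% and 5.31%. The mixtures with CPF 0.1, 0.25 and 0.6 had 13, 11 and 6 above control, beside 14%, 11.5% and 7.35%, and 7, 7 and 6 below, beside 9.65%, 9.06% and 5.8%. All 9 of these comparisons share the 3 control arrays. Against the same CPF alone, the mixtures had 5, 8 and 3 above, beside 6.2%, 7.89% and 4.54%, and 1, 5 and 5 below, beside 5.98%, 7.82% and 5.61%. The statements below that groups did not overlap are to be read against these shares.

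Among the zinc exporters, slc30a7, which in mammals loads zinc into the early secretory pathway, was the 1 of 5 that was called. Its 3 control arrays read 7.97, 7.97 and 7.98, the Cu 0.1 arrays 8.05, 8.02 and 8.09, the Cu 0.25 arrays 8.12, 8.17 and 8.19, and the Cu 0.6 arrays 8.50, 8.45 and 8.50. The 4 groups did not overlap, each lying above the one with less copper. At Cu 0.6 slc30a7 rose by 0.50 ± 0.11 (SE, n = 3 per group) over control, with an adjusted p of 0.02046 in limma, and the rank trend was 0.17 ± 0.04 per step, with an adjusted p of 0.01368. In title batch 2 alone the Cu 0.6 arrays were 0.52 above control and in title batch 3 they were 0.47 above it, and title batch 1 held none of them. The macrophage marker mean was 9.14 to 9.60 in the Cu 0.6 arrays and 8.87 to 9.05 in the controls. Of the 3 measured macrophage markers, 2 had positive differences at Cu 0.6 and none was called. The olfactory neuron markers fell as given above. The part of either set of markers in the slc30a7 result was not tested. With any 1 of the 6 arrays left out the difference was 0.48 to 0.55 and the adjusted p 0.05213 to 0.1021, so the call at Cu 0.6 was lost in each of these fits. The trend lost its call without Cu 0.6 replicate 2 (0.16, adjusted p 0.05588) or control replicate 3 (0.16, adjusted p 0.05135) and kept it in the other 10 fits. With quantile normalization the Cu 0.6 difference of slc30a7 was 0.43 (adjusted p 0.05306) and its call was lost, while the trend was 0.14 (adjusted p 0.03771). Both calls on slc30a7 were also lost without title batch 3 (0.52, adjusted p 0.169, and 0.17, adjusted p 0.1178) and with the compared groups fitted alone (adjusted p 0.4347 and 0.05744). Without the 4 arrays with high pancreas signal slc30a7 was called at Cu 0.6 (0.50, adjusted p 0.04425) and in the trend (0.16, adjusted p 0.03175). Without those 4 and control replicate 1 neither was called (0.54, adjusted p 0.1199, and 0.18, adjusted p 0.08603).

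With Cu 0.25 and CPF together, the slc30a7 arrays read 8.35, 8.46 and 8.17 at CPF 0.1, 8.24, 8.49 and 8.33 at CPF 0.25, and 7.97, 8.26 and 8.07 at CPF 0.6. The first and the second of these groups lay wholly above the controls and the CPF 0.6 mixture did not. Against control the fitted differences were 0.32 (adjusted p 0.19), 0.38 (adjusted p 0.11) and 0.12 (adjusted p 0.75) in limma, and none passed. CPF alone gave 8.49, 8.07 and 7.92 at 0.1, 8.02, 8.07 and 7.97 at 0.25, and 8.13, 8.22 and 8.15 at 0.6, so that 1 CPF 0.1 array was as high as the Cu 0.6 arrays. In the averaged copper comparison slc30a7 was 0.17 ± 0.06 higher (adjusted p 0.094). Without CPF 0.1 replicate 1, that high array, the same difference was 0.21 with an adjusted p of 0.007637.

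The other 4 zinc exporters did not pass in any comparison. slc30a5 and slc30a6, which form a complex that also supplies zinc to the secretory pathway, were 0.22 ± 0.07 (adjusted p 0.088) and 0.13 ± 0.10 (adjusted p 0.51) higher in the averaged copper comparison. For slc30a5 the 12 arrays without copper ran from 5.45 to 6.03 with a median of 5.96, and the 12 arrays with Cu 0.25 from 5.89 to 6.57 with a median of 6.08. The 2 sets overlapped. With the title batch effect removed from the values, 11 of the 12 copper arrays were above the median of the arrays without copper. slc30a5 passed, at an adjusted p of 0.04126, only without Cu 0.25 replicate 3. The slc30a6 difference went to -0.03 without the 4 arrays with high pancreas signal. slc30a1a, the exporter of the plasma membrane, differed by -0.07 ± 0.12 (adjusted p 0.82) in the average, and slc30a9, a mitochondrial zinc exporter, by 0.05 ± 0.06 (adjusted p 0.69).

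Of the zinc importers, slc39a3, a zinc uptake carrier, was the one that passed. Its arrays read 5.25, 5.29 and 5.08 at CPF 0.25 and 5.98, 5.80 and 5.93 at CPF 0.25 + Cu 0.25, with no overlap. The rise was 0.69 ± 0.15 (SE, n = 3 per group), with an adjusted p of 0.04749 in limma. In title batch 1 alone it was 0.52, and in title batch 2 it was 0.76. The call was lost when any 1 of the 6 arrays was left out, with differences of 0.61 to 0.78 and adjusted p of 0.07876 to 0.2238, and the difference was 0.49 (adjusted p 0.4413) without the 4 arrays with high pancreas signal, 2 of which are CPF 0.25 arrays, and 0.53 (adjusted p 0.3902) without those 4 and control replicate 1. Of 3 measured macrophage markers, 2 had positive differences in this comparison (median of the 3, 1.27), and 1 of them, c1qc, was called. The pancreas marker mean was 3.65 to 7.02 in the CPF 0.25 arrays against 3.42 to 4.31 in the mixture. Their part in the slc39a3 result was not tested.

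In the other comparisons slc39a3 did not pass. The controls read 5.50, 5.12 and 5.07, the Cu 0.6 arrays 5.61, 5.25 and 5.30, and the CPF 0.6 arrays 5.50, 5.60 and 6.14. The Cu 0.6 arrays were thus within the range of the controls apart from 1 array, while CPF 0.6 reached above it. Against control the Cu 0.6 difference was 0.12 ± 0.15 (adjusted p 0.75) and the CPF 0.6 difference 0.56 ± 0.15 (adjusted p 0.22). The effect of Cu 0.25 on slc39a3 was 0.10 without CPF, 0.13 at CPF 0.1, 0.69 at CPF 0.25 and -0.19 at CPF 0.6, and the interaction over the 3 CPF levels had an unadjusted p of 0.003936 and an adjusted p of 0.9999 in limma. Over all metal carriers, copper gave a positive difference in 9 of 11 in the averaged comparison, where 55.6% of all probe sets were positive. The median was 0.13 beside 0.02 for all probe sets tested, and none of the 11 was called there. Of the 9, slc39a13 was at 0.00. It went to -0.02 and slc30a6 to -0.03 without the 4 arrays with high pancreas signal. From CPF 0 to CPF 0.6, Cu 0.25 gave positive differences in 9, 6, 9 and 4 of the 11 metal carriers. The shares of all probe sets were 56.6%, 49.9%, 51.3% and 53.2%. Against control, 5 of the 11 were positive at Cu 0.1 and 7 at Cu 0.6, beside 51.4% and 58.3% of all probe sets.

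The remaining zinc importers did not pass. The averaged copper differences were 0.13 ± 0.09 for slc39a6, an importer of the plasma membrane, 0.14 ± 0.08 for slc39a7, which releases zinc from the endoplasmic reticulum, 0.04 ± 0.07 for slc39a9 and 0.00 ± 0.07 for slc39a13, both of the Golgi or vesicles. A further probe set agreed for slc39a7 (0.13 against 0.14 on the chosen one) and had the opposite sign for slc39a9 (-0.05 against 0.04). The slc39a5 probe set was at 2.67 to 3.23 in all arrays and was not tested.

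The copper uptake carrier slc31a1 stayed within a narrow range and was not called. The controls read 8.18, 8.23 and 8.47, the Cu 0.1 arrays 7.93, 8.15 and 7.98, the Cu 0.25 arrays 8.17, 8.26 and 8.04, and the Cu 0.6 arrays 8.24, 7.91 and 8.05. All Cu 0.1 arrays were below all controls, whereas the Cu 0.25 and Cu 0.6 arrays overlapped them. The differences from control were -0.32 ± 0.11 (adjusted p 0.37), -0.14 ± 0.11 (adjusted p 0.70) and -0.25 ± 0.11 (adjusted p 0.28) in limma. The mixture with CPF 0.6 read 7.83, 8.07 and 7.98, again below all controls, with a difference of -0.34 ± 0.11 (adjusted p 0.32). A second slc31a1 probe set gave -0.20 ± 0.28 at Cu 0.6 and 0.03 ± 0.14 in the averaged comparison, beside -0.25 and -0.09 on the chosen one.

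**Figure D1:**
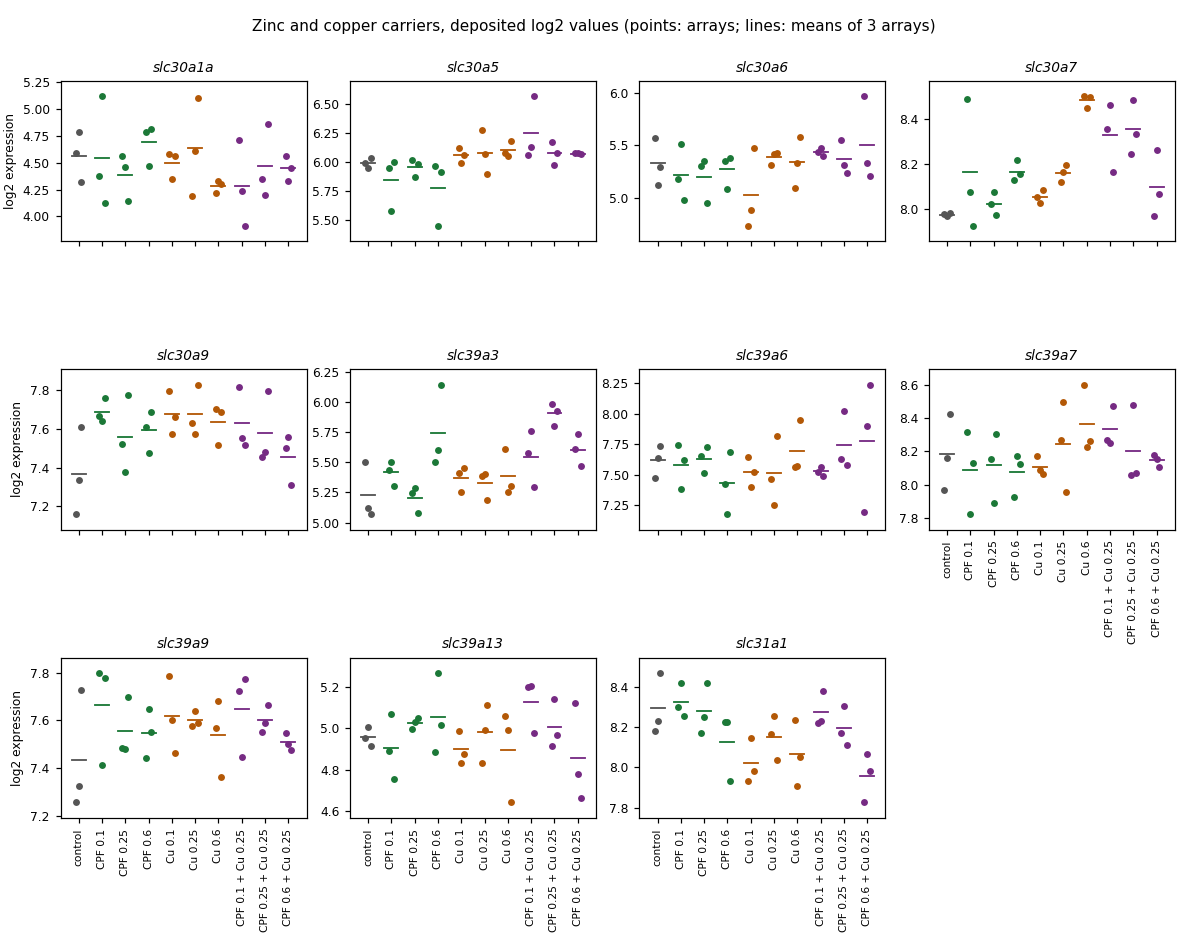
Deposited log2 expression (vertical axis, one scale per panel) of the 11 measured zinc and copper carriers in the 10 groups (horizontal axis); points are arrays and lines are means of 3 arrays. The slc30a7 arrays climb from 7.97 in the controls to 8.50 at Cu 0.6, and slc39a3 is highest in the CPF 0.25 + Cu 0.25 group, at 5.80 to 5.98.

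Of 24 other genes listed for metal handling, 9 were on the array and measured. In the averaged copper comparison the ferritin gene fthl28 rose by 2.78 ± 0.63 (adjusted p 0.01156), and none of the 9 was called at Cu 0.6. sod1, the copper and zinc superoxide dismutase, differed by 0.08 ± 0.04 (adjusted p 0.34) and mtf1, the metal-responsive transcription factor, by -0.41 ± 0.15 (adjusted p 0.12) in the average. The iron carriers among the members were not called. slc11a2, a proton-coupled importer of iron and other divalent metals, was 0.15 ± 0.06 higher in the average (adjusted p 0.16, higher in 11 of 12 copper arrays than the median without copper), and slc40a1, the iron exporter ferroportin, was 0.26 ± 0.20 higher (adjusted p 0.51). At Cu 0.6 the slc40a1 arrays read 7.87, 7.57 and 7.89, below the controls at 7.91, 9.41 and 8.21, with a difference of -0.67 ± 0.39 (adjusted p 0.44).

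The amino acid carriers held both of the other called genes. slc3a2a encodes the heavy chain that brings slc7 light chains to the plasma membrane. Its arrays with Cu 0.25 read 6.02, 6.25 and 6.18 without CPF, 6.50, 6.25 and 6.25 at CPF 0.1, 6.32, 6.31 and 6.11 at CPF 0.25, and 6.16, 6.07 and 6.01 at CPF 0.6. Without copper they read 5.63, 5.82 and 6.03 in the controls, 5.81, 5.87 and 5.98 at CPF 0.1, 5.90, 6.02 and 5.96 at CPF 0.25, and 5.75, 6.03 and 6.15 at CPF 0.6. All 12 copper arrays were above the median of those without copper, 5.93, and at CPF 0.1 and CPF 0.25 the groups did not overlap. The averaged rise was 0.30 ± 0.08 (SE, 12 arrays against 12), with an adjusted p of 0.02924 in limma. The effect at each CPF level was 0.33, 0.45, 0.32 and 0.12 from CPF 0 to CPF 0.6, and these 4 values share no array.

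The call on slc3a2a remained in 17 of 24 fits with 1 array left out, and the difference ranged from 0.27 to 0.34. It was lost without control replicate 1 (0.27, adjusted p 0.09659), without CPF 0.25 + Cu 0.25 replicate 2 (0.29, adjusted p 0.07028), and in 5 further fits, with adjusted p of 0.05336 to 0.06232. Those 5 left out the second CPF 0.1 array, the first array of CPF 0.25, the first of CPF 0.6, the second of Cu 0.25 and the first of the CPF 0.1 mixture. The difference was 0.26 (adjusted p 0.1857) without the 4 arrays with high pancreas signal, 0.22 (adjusted p 0.3691) without those 4 and control replicate 1, 0.30 (adjusted p 0.502) in title batch 1 alone and 0.21 (adjusted p 0.6177) in title batch 2 alone. Of 3 measured macrophage markers, marco and c1qc rose by 0.98 and 0.91 in the same comparison and cd74a differed by -0.12 (adjusted p 0.45), and the macrophage marker mean was 8.68 to 9.31 in the arrays without copper and 9.07 to 10.02 in those with Cu 0.25. The part of these cells in the slc3a2a result was not tested. The paralogue slc3a2b differed by -0.17 ± 0.10 (adjusted p 0.38).

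slc7a7, a light chain that exchanges cationic for neutral amino acids, was near the lower limit of detection. Its arrays read 3.80, 3.75 and 3.62 in the controls, 3.69, 3.58 and 3.67 at Cu 0.1, 3.67, 4.32 and 4.01 at Cu 0.25, and 4.23, 4.20 and 4.36 at Cu 0.6. The Cu 0.6 arrays were all above all controls. The rank trend was 0.20 ± 0.05 per step (adjusted p 0.04029 in limma), and the difference at Cu 0.6 was 0.54 ± 0.16 (adjusted p 0.094). Only 6 arrays exceeded 4, all of them with copper, so slc7a7 passed the filter on low values through the groups in which it was high and its call is no independent support. The trend was called in 3 of 12 fits with 1 array left out, those without a Cu 0.25 array, and the adjusted p reached 0.1326 without Cu 0.6 replicate 3. It was also lost without the 4 arrays with high pancreas signal (0.19, adjusted p 0.05696) and without those 4 and control replicate 1 (0.22, adjusted p 0.1022). With quantile normalization slc7a7 was called at Cu 0.6 (0.63, adjusted p 0.01516).

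Against control, the differences of the amino acid carriers were mostly positive in every exposed group. At Cu 0.6 the difference was positive for 11 of 11 carriers other than slc7a7, whose sign the filter on low values could fix, with a median of 0.30 beside 0.05 for all probe sets tested, of which 58.3% were positive. None of these carriers was called there. Across the 9 exposed groups the median over the 11 carriers without slc7a7 was 0.13 to 0.30, all 9 measured against the same 3 control arrays. With slc7a7 counted, the median over the 12 carriers was 0.12 to 0.37, and 0.11 to 0.32 in the fit without control replicate 1. The comparisons that use no control array were not mostly positive. With Cu 0.25 added to CPF 0.1, 0.25 and 0.6, differences were positive for 5, 5 and 4 of the 12 carriers, with medians of -0.05, -0.03 and -0.06. slc7a7 was among the positive ones in each of these counts. The 4 measured glial markers also had positive differences from control in every exposed group, with medians of 0.25 to 0.40 and none called, and their mean level was 9.67 to 10.06 in the controls and 9.94 to 10.52 in the exposed arrays. Their part in the amino acid carrier values was not tested.

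slc43a2a, a facilitative carrier of large neutral amino acids, had the largest of these differences. The controls read 6.67, 6.90 and 7.07, and the Cu 0.6 arrays 7.84, 7.93 and 7.98. The arrays of Cu 0.1, Cu 0.6, CPF 0.1, CPF 0.6 and the 3 mixtures all lay above the controls, whereas 1 array each of CPF 0.25 (6.61) and Cu 0.25 (6.51) did not. At Cu 0.6 the difference was 0.99 ± 0.29 (adjusted p 0.083), and it was 0.98 (adjusted p 0.00895) without the 4 arrays with high pancreas signal, which include both of those low arrays. That fit also called slc43a2a at Cu 0.25 (0.99, adjusted p 0.04924) and in the copper trend (0.33 per step, adjusted p 0.00637). Without control replicate 1, the lowest control, the Cu 0.6 difference of slc43a2a was 0.78 (adjusted p 0.373). slc7a3a, a cationic amino acid transporter, read 9.31, 9.49 and 9.68 in the controls and 9.62 to 10.63 in all other arrays, with differences of 0.32 to 0.63 and adjusted p of 0.24 to 0.80. slc38a2, a sodium-coupled neutral amino acid transporter known to respond to amino acid supply, was 0.56 ± 0.13 higher at Cu 0.1 (adjusted p 0.20), where its arrays read 8.70, 8.42 and 8.48 against 7.90, 8.14 and 7.85 in the controls. Without Cu 0.1 replicate 2 that slc38a2 difference had an adjusted p of 0.04703 in limma. slc38a2 also lay wholly above control at Cu 0.6, CPF 0.25, CPF 0.6 and the mixture with CPF 0.6. Control had its lowest mean of the 10 groups (7.96).

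**Figure D2:**
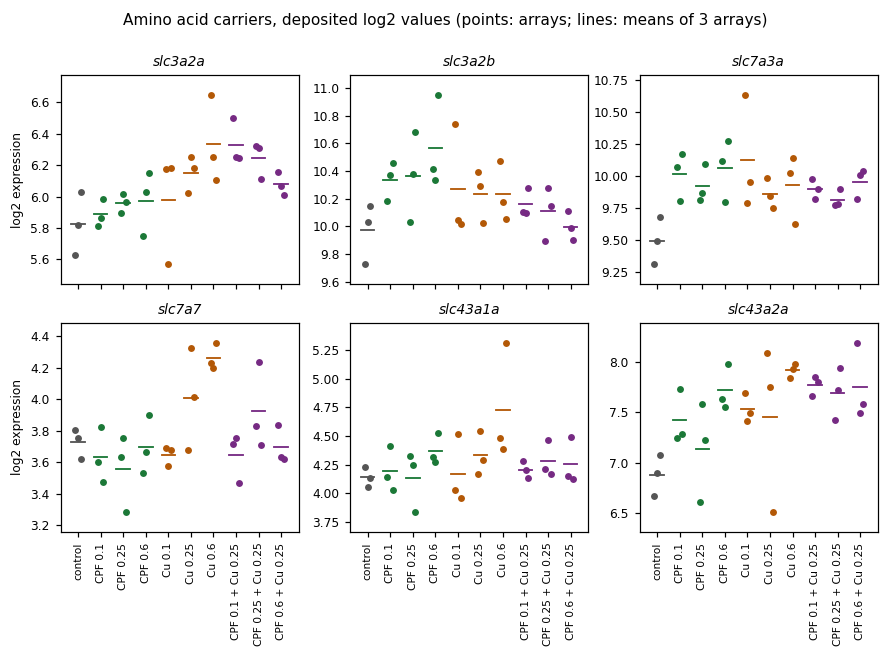
Deposited log2 expression (vertical axis, one scale per panel) of 6 amino acid carriers in the 10 groups (horizontal axis); points are arrays and lines are means of 3 arrays. slc3a2a group means are highest at Cu 0.6 and in the first CPF mixtures, slc7a7 stands at 4.20 to 4.36 at Cu 0.6, and the slc43a2a and slc7a3a controls are low beside most exposed groups.

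**Figure D3:**
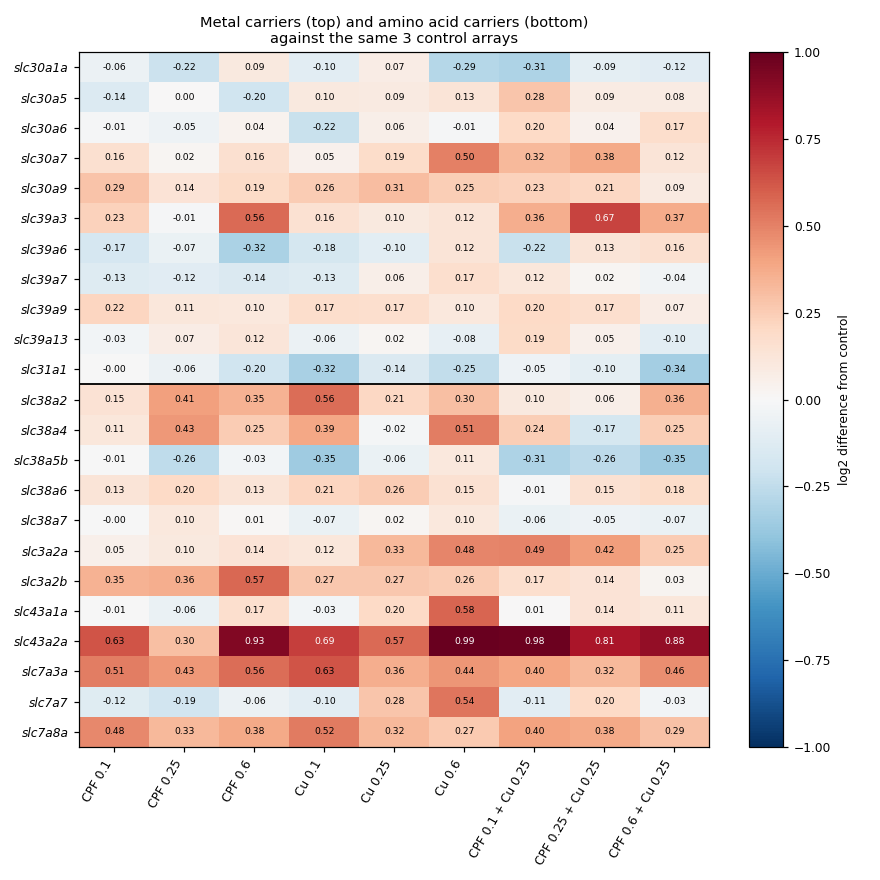
Fitted log2 difference from the 3 control arrays (colour scale and printed values) for the metal carriers (upper block) and amino acid carriers (lower block), with exposed groups as columns. The slc43a2a and slc7a3a rows are among those positive in all 9 groups, which share the same 3 controls, and the slc30a7 row peaks at 0.50 at Cu 0.6.

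In the sugar group none of 5 was called. slc2a10, a facilitative glucose transporter, was 0.42 ± 0.13 higher in the averaged copper comparison (adjusted p 0.068). Its arrays without copper ran from 3.96 to 5.003 with a median of 4.66, and those with Cu 0.25 from 4.53 to 5.66 with a median of 4.95. The sets overlapped. With the title batch effect removed from the values, 11 of 12 copper arrays were above the median without copper. The difference was positive at each CPF level, at 0.17, 0.50, 0.43 and 0.59. The arrays of CPF 0.1, 0.25 and 0.6 alone all lay below the controls, so the last 3 differences are measured against low arrays. Averaged over copper levels, slc2a10 differed from no CPF by -0.38, -0.27 and -0.47. Its Cu 0.1 arrays also lay wholly below the controls, whereas its highest group mean was at Cu 0.6 (5.17). slc2a10 passed without Cu 0.25 replicate 3 or CPF 0.1 replicate 1, and without the 4 arrays with high pancreas signal the difference was 0.54 (adjusted p 0.0417). slc5a8l, of the sodium-coupled family and placed here by its family number, differed by -0.17 ± 0.10 (adjusted p 0.35). It was near the filter, with a mean of 3.855 and only 8 arrays above 4.

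slc16a3b, of the monocarboxylate carriers that export lactate, was high in 2 of the mixtures. Its arrays read 7.47, 7.97 and 7.64 at CPF 0.1 + Cu 0.25 and 7.22, 7.83 and 7.73 at CPF 0.25 + Cu 0.25, against 5.99, 6.62 and 7.07 in the controls. Both groups lay above all controls. The differences of 1.05 ± 0.30 (adjusted p 0.14) and 1.03 ± 0.29 (adjusted p 0.10) did not pass, and the third mixture was at 6.69, 6.85 and 7.34, a difference of 0.40 ± 0.29 (adjusted p 0.70). Without control replicate 3 the first of these differences passed, at an adjusted p of 0.04904. The average effect of copper on slc16a3b was 0.39 ± 0.15 (adjusted p 0.15). slc15a4, a lysosomal carrier of histidine and peptides, was 0.49 ± 0.15 higher at Cu 0.25 (7.32, 7.48 and 7.23 against 6.46, 6.89 and 7.21 in the controls, adjusted p 0.19). This was not particular to Cu 0.25, since control had the lowest mean of the 10 groups (6.85). slc15a4 also lay wholly above control at Cu 0.1 (0.42) and at CPF 0.6 alone (0.47). With Cu 0.25 added to CPF 0.6 its difference was -0.09.

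Of 20 mitochondrial carriers none was called, and 11 were positive in the averaged copper comparison with a median of 0.01. slc25a25a, a calcium-regulated carrier of ATP-magnesium and phosphate, came nearest to the threshold among members not called there, at -0.45 ± 0.13 (adjusted p 0.05485). Its arrays read 5.71, 6.20 and 6.34 at CPF 0.6 and 4.55, 5.25 and 4.98 at CPF 0.6 + Cu 0.25, which did not overlap. That pair gave -1.15, and the other CPF levels gave -0.36, -0.23 and -0.08. slc25a25a passed in 3 of 24 fits with 1 array left out, which dropped the first CPF 0.6 array, the first Cu 0.25 array or the second array of the CPF 0.6 mixture. slc25a43, a carrier without a known substrate, differed by -0.39 ± 0.14 (adjusted p 0.13) and was negative at all 4 CPF levels. slc25a3b, the mitochondrial phosphate carrier, was 0.23 ± 0.09 above control at Cu 0.6 (adjusted p 0.19), with 12.03, 12.01 and 12.03 against 11.82, 11.72 and 11.82. Control had its lowest mean of the 10 groups (11.79). slc25a3b also lay wholly above control at Cu 0.25, CPF 0.1 alone, CPF 0.6 alone and in each mixture.

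The 6 measured carriers of chloride, bicarbonate and other anions had negative differences in the averaged copper comparison, from -0.14 to -0.36 with a median of -0.23, where 44.4% of all probe sets were negative, and none was called. One of them, the chloride-bicarbonate exchanger slc4a1a (-0.35, adjusted p 0.45), exceeded 4 in only 3 of 30 arrays, none of them with Cu 0.25. It passed the filter on low values through other groups, so its negative sign is no independent support. The other 5 were all negative without it, with a median of -0.22. The shared sign did not hold in every comparison. With slc4a1a counted, 2 of the 6 were positive at Cu 0.6 against control, and 2 with Cu 0.25 added to CPF 0.6. In the averaged comparison slc4a2a, a chloride-bicarbonate exchanger, gave the lowest value, -0.36 ± 0.14 (adjusted p 0.16). Its arrays read 6.52, 6.19 and 7.07 at Cu 0.25 and 6.85, 6.05 and 6.42 at CPF 0.1 + Cu 0.25, against 7.13, 7.55 and 7.05 in the controls. The mixture lay below all controls, whereas 1 Cu 0.25 array overlapped them, and at Cu 0.6 the 3 arrays of 7.46, 6.91 and 7.53 were in the range of the controls or near it. The other slc4a2a probe sets gave -0.04 and -0.20 in the averaged comparison, nearer to 0 than the chosen one, and 0.55 and -0.23 at Cu 0.6, beside 0.08. slc12a9, of the cation-chloride cotransporter family, was -0.21 ± 0.09 (adjusted p 0.22), and its second probe set gave -0.04. Of the 6 measured markers of ionocytes and mucous epithelium, 3 were positive in this comparison, with a median of -0.01. 1 of the 6, agr2, was called higher. The part of these markers in the anion carrier values was not tested. Among the 21 measured genes of the sodium and proton pumps, whose gradients drive many carriers, atp1a1a.3 fell by 0.99 and atp1b1a fell by 0.41 in this comparison, and atp1a1a.3 fell by 2.84 at Cu 0.6. Most other pump genes had small positive differences, with 15 of the 21 positive in the average (median 0.05) and 16 at Cu 0.6 (median 0.13). The organic cation carrier slc22a2 was -0.34 ± 0.12 in the average (adjusted p 0.10), negative at all 4 CPF levels, and passed, at an adjusted p of 0.03388, only without Cu 0.25 replicate 3.

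**Figure D4:**
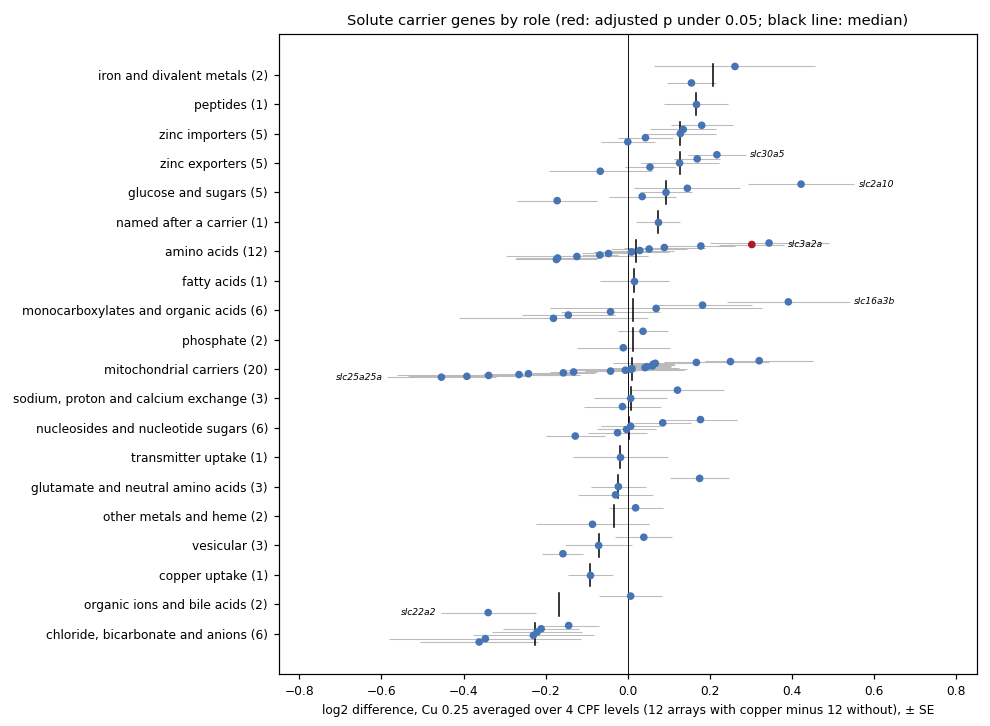
Fitted log2 difference for Cu 0.25 averaged over 4 CPF levels (horizontal axis, points with SE bars) for the 87 tested members grouped by role (vertical axis, number of members in brackets); black lines are medians and red marks an adjusted p under 0.05. slc3a2a is the only red point, and the 6 carriers of chloride, bicarbonate and anions lie below 0.

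None of the tested carriers of the glutamate, vesicular and transmitter uptake families was called. slc1a3a, the glutamate transporter of glia, read 6.38, 6.37 and 6.40 at Cu 0.6 and 5.98, 6.14 and 6.05 in the controls, with no overlap, but the difference of 0.34 ± 0.14 had an adjusted p of 0.26. slc1a2b, the other main glutamate transporter, differed by -0.02 ± 0.07 (adjusted p 0.89) in the averaged copper comparison. slc17a5, the lysosomal sialic acid carrier sialin, was -0.16 ± 0.05 there (adjusted p 0.080). Its arrays read 6.95, 6.77 and 6.99 at CPF 0.25 and 6.51, 6.61 and 6.58 in the mixture with Cu 0.25, which did not overlap. The slc6a17 transporter of synaptic vesicles, the 1 member of its family above the filter, differed by -0.02 ± 0.12 (adjusted p 0.95).

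The effect of Cu 0.25 could be set side by side at 4 CPF levels that share no array. It was positive at all 4 levels for 17 of 87 carriers, which is 19.5% beside 16.4% of all probe sets, and negative at all 4 for 14, which is 16.1% beside 13.2%. The zinc carriers slc30a5, slc30a6 and slc39a7 were among the 17, as were slc3a2a, slc2a10, slc16a3b, slc11a2 and slc1a3a. slc7a7 was counted there too, at 0.28, 0.01, 0.39 and 0.03. Only arrays with copper carried slc7a7 past the filter, so its sign is no independent support. The copper uptake carrier slc31a1 was among the 14, with -0.14, -0.05, -0.04 and -0.14, together with slc22a2, slc25a25a, slc25a43, slc12a9 and slc5a8l. The 14 also hold slc4a1a, which no Cu 0.25 array carried past the filter. slc30a7 was positive at 3 levels, at 0.19, 0.16 and 0.37, and -0.04 at CPF 0.6. Both shares lay near those of all probe sets.

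**Figure D5:**
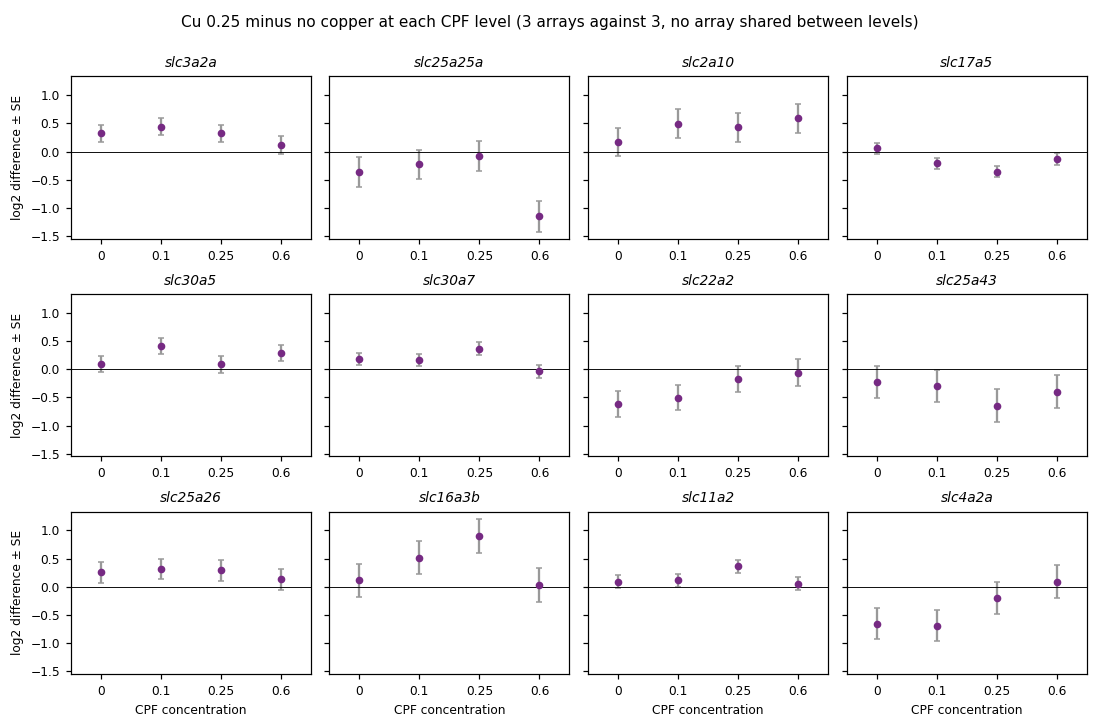
Fitted log2 difference between Cu 0.25 and no copper (vertical axis, ± SE) at each CPF concentration (horizontal axis, unit not given) for the 12 members with the smallest p-values in the averaged comparison; each point sets 3 arrays against 3 others. slc3a2a runs from 0.45 at CPF 0.1 to 0.12 at CPF 0.6, and slc25a25a reaches -1.15 at CPF 0.6.

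CPF moved no solute carrier past the threshold. slc25a20, which carries acylcarnitines into mitochondria for fatty acid oxidation, had the smallest p-value in the test of the CPF effect averaged over the copper levels (unadjusted 0.002447, adjusted 0.4442, in limma). Its controls read 7.71, 7.66 and 7.66, the CPF 0.1 arrays 7.47, 7.52 and 7.53, the CPF 0.25 arrays 7.54, 7.52 and 7.35, and the CPF 0.6 arrays 7.55, 7.25 and 7.55. In the mixtures it read 7.51, 7.51 and 7.48, then 7.50, 7.57 and 7.52, then 7.60, 7.52 and 7.30, so that all 18 arrays with CPF lay below all controls. That held for 0.104% of all probe sets tested and for no other carrier, and slc25a20 was picked by its p-value from the same arrays, so the pattern is a description. Averaged over copper levels, the differences from no CPF were -0.26, -0.26 and -0.30 at CPF 0.1, 0.25 and 0.6. The Cu 0.25 arrays, at 7.85, 7.97 and 7.75, were above all controls. In the other direction, slc7a3a was the 1 carrier with all 18 CPF arrays above all controls, which held for 0.56% of all probe sets tested.

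slc25a43 and slc39a3 were higher with CPF in the average over copper levels, without passing. For slc39a3, CPF 0.25 alone had the lowest mean of the 10 groups (5.205). Its averaged rise at CPF 0.25 thus lay in the mixture with copper. Averaged over the copper levels, slc25a43 differed from no CPF by 0.36, 0.65 and 0.64 at CPF 0.1, 0.25 and 0.6 (adjusted p 0.7245), and slc39a3 by 0.25, 0.28 and 0.42 (adjusted p 0.6124). slc35h1, of the nucleotide sugar carrier family, was lower, by values of -0.30, -0.27 and -0.34 (adjusted p 0.6938). The CPF 0.6 arrays of slc25a43 read 6.98, 6.94 and 6.99, above the controls at 5.71, 6.22 and 6.68. Of 3 markers listed for choroid plexus and blood-brain barrier, only kdrl passed the filter, while cldn5a, at 3.30 to 3.92, did not. kdrl stood at 6.94 to 7.23 in the controls and 7.85 to 8.23 at CPF 0.6, and was not called there. Its part in these values was not tested.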

How the data were processed

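The authors deposited one table of log2 expression values for 30 Affymetrix arrays, and the submitters' processing notes name GCRMA as the method, without a version. The log2 scale was read from the range of the values, 1.02 to 15.73. The values were used as deposited. Gene symbols came from the platform annotation. Probe sets above 4 in at least 3 arrays were kept. limma 3.58.1 in R 4.3.3 fitted group means with title batch as a term, and p-values were adjusted over all 10531 probe sets by Benjamini-Hochberg at a threshold of 0.05. Copper at 0.25 was averaged over the 4 CPF levels, and trends used concentration ranks. The number of arrays limits the precision. By rule, the genes to be named were all measured zinc and copper carriers and the called members of each comparison. Where none was called, the 2 smallest p-values were taken. The 2 members with the smallest averaged copper p in each role group were added, 49 genes in all. Of these, slc24a4a, slc35f6, slc16a9b, slc35a4 and slc9a7 are not described above, and none was called. In averaged copper the first 4 differed by 0.12, 0.18, 0.18 and -0.13. Averaged over copper levels, slc9a7 differed from no CPF by 0.40, 0.27 and 0.30 at CPF 0.1, 0.25 and 0.6. Other members named were chosen after their values were seen. The members and lists were chosen with earlier results of these data known. Alternatives changed the batch term, filter, normalization, probe set choice and arrays. The fit was tested on simulated data.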

Additional observations from a re-analysis of the deposited data

Results flagged for a closer look

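slc17a9b, which in mammals loads ATP into vesicles, was picked out because its groups separated in opposite directions with Cu 0.25 without CPF and at CPF 0.25. It was near the filter, with a mean of 4.30. slc17a9b differed by -0.40 between Cu 0.25 and control (4.19, 3.88 and 4.17 against 4.45, 4.77 and 4.23) and by 0.211 between CPF 0.25 + Cu 0.25 and CPF 0.25 (4.59, 4.28 and 4.33 against 4.26, 4.14 and 4.05). Of all probe sets, 4.96% lay wholly below in the first comparison and 7.89% wholly above in the second. The share with both was not counted. The interaction over the CPF levels had an unadjusted p of 0.07333 and an adjusted p of 0.9999 in limma, so slc17a9b did not pass.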

How the results depend on the processing

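No paired analysis was possible because the labels carry no replicate numbers. Counts of called carriers moved in some comparisons. Without title batch 3 the counts fell to 0 for Cu 0.6, the CPF 0.25 mixture against CPF 0.25, averaged copper and the copper trend. Without the 4 arrays of high pancreas signal, an alternative chosen after seeing the data, they were 1 at Cu 0.25 (slc43a2a), 2 at Cu 0.6 and 0 for the CPF 0.25 mixture against CPF 0.25. Leaving out control replicate 1 as well, also added later, gave 0 for Cu 0.6, that mixture, averaged copper and the trend. The compared groups fitted alone, also added later, gave 0 at Cu 0.6, for that mixture and for the trend, and either of title batches 1 and 2 alone gave 0 for averaged copper. No batch term and a random block each gave 2 for averaged copper and 1 for any difference among groups. Quantile normalization gave 3 for averaged copper and 1 for the CPF 0.25 mixture against control, and at Cu 0.6 it called slc7a7 in place of slc30a7; the mean of all probe sets also gave 1 for that mixture. No filter and a filter at 6 gave 0 for the mixture against CPF 0.25, and the filter at 6 left 1 in the trend. At the filter of 6, slc39a3 and slc7a7 (highest values 6.14 and 4.36) were not tested, so that setting could not call them. With 1 array left out, counts ran from 0 to 5 for averaged copper, 0 to 3 for the copper trend and for the CPF 0.1 mixture against control, 0 to 2 for any difference, and 0 to 1 for Cu 0.1 and the CPF 0.25 mixture against control. They were 0 in every such fit for Cu 0.6 and for the CPF 0.25 mixture against CPF 0.25. The signs of some small differences turned, none of them past the threshold on either side. For averaged copper without the 4 arrays these were -0.02 for slc10a7, -0.009 for slc20a2, -0.007 for slc27a1a, -0.026 for slc30a6 and -0.022 for slc39a13. With control replicate 1 left out too they were -0.062 for slc20a2, -0.016 for slc30a6, -0.003 for slc30a9, -0.036 for slc39a13 and 0.024 for slc49a4. In title batch 1 alone they were 0.063 for slc1a2b, -0.045 for slc20a2, -0.004 for slc43a2a and 0.003 for slc9a8. In title batch 2 alone they were 0.08 for slc20a1b, -0.082 for slc39a13, -0.032 for slc39a9, -0.02 for slc48a1b, 0.136 for slc49a4, 0.175 for slc6a17 and -0.022 for slc7a6os. Without title batch 3 slc20a2 was -0.003, with quantile normalization slc48a1b was -0.003, and with the mean of probe sets slc39a9 was -0.006. At Cu 0.6, slc30a6 was 0.01 with no batch term, 0.014 with a random block, 0.11 without title batch 3 and 0.004 with quantile normalization, and slc39a9 was -0.063 without title batch 3. With 1 array left out, averaged copper ran from -0.03 to 0.04 for slc10a7, -0.056 to 0.015 for slc1a2b, -0.054 to 0.051 for slc20a1b, -0.007 to 0.07 for slc20a2, -0.021 to 0.056 for slc27a1a, -0.144 to 0.015 for slc30a1a, -0.031 to 0.025 for slc39a13, -0.011 to 0.053 for slc48a1b, -0.113 to 0.062 for slc6a17 and -0.076 to 0.022 for slc9a8. At Cu 0.6 it ran from -0.173 to 0.092 for slc30a6, -0.166 to 0.048 for slc39a13 and 0 to 0.281 for slc39a9. Apart from the smaller number of arrays or genes that some alternatives use, the cause was not tested.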
